A study of Mus musculus with 7 samples.

Results

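Tubular injury markers are genes that kidney tubule cells switch on, or express more strongly, when they are damaged or repairing. The set described here holds 10 of the 17537 genes listed for these kidneys: Havcr1, Lcn2, Spp1, Clu, Vcam1, Krt8, Krt18, Krt19, Sox9 and Timp1. They were taken by symbol from a fixed list of markers, and all 10 were found in the table. Polyadenylated RNA of whole kidney was sequenced in 7 libraries from C57BL/6 mice, labelled as male. Control mice (C, replicates 2, 8 and 9) were not diabetic and were injected with the citrate vehicle. Diabetic mice (DM-22, replicates 1 and 2) received streptozotocin, a toxin of the insulin-producing beta cells, at 60 mg/kg on 5 days. Diabetic mice with treatment (DM+SGLT2i, replicates 1 and 2) received the same toxin and, from week 16 on, drank water with dapagliflozin (25 mg/kg) during the remaining 6 weeks. Dapagliflozin blocks the glucose carrier SGLT2 of the proximal tubule. Mice of the 3 groups were 8 to 10 weeks old at the start and were followed for 22 weeks. The labels do not say whether each library came from a mouse of its own, so p-values measure the spread between these libraries, which may in part be technical.

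The proximal tubule reabsorbs most of the filtered solutes and is the segment most easily hurt by toxins, lack of oxygen and protein overload. A damaged tubule cell loses its transporters, spreads over the bare basement membrane and turns on genes that healthy adult cells keep low. Some of their products are shed or secreted into urine, where they serve as clinical signs of injury, and others rebuild the cytoskeleton, attach immune cells or steer repair. In whole kidney, the distal segments, collecting duct, urothelium and immune cells also express several of these genes.

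Of the 3 controls, C replicate 2 stood apart from the others. It had the highest level of the 7 libraries for 9 of the 10 markers, against 16.4% of all 13976 genes tested, and for the other marker, Krt19, it came second to DM+SGLT2i replicate 1. It lay above C replicates 8 and 9 for 10 of 10 markers, against 44.2% of all genes. Comparisons with controls are therefore given with all 3 controls and with C replicates 8 and 9 alone. Levels are read counts scaled to the size of the library and normalized (CPM), folds are ratios of mean CPM, and log2 differences are on the log2(CPM + 0.5) scale, which understates changes of genes near 0.5 CPM. Depth ranged from 46456125 to 56541594 reads on the genes of the table, and 1 read was worth between 0.0180 and 0.0231 CPM.

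**Figure D1:**
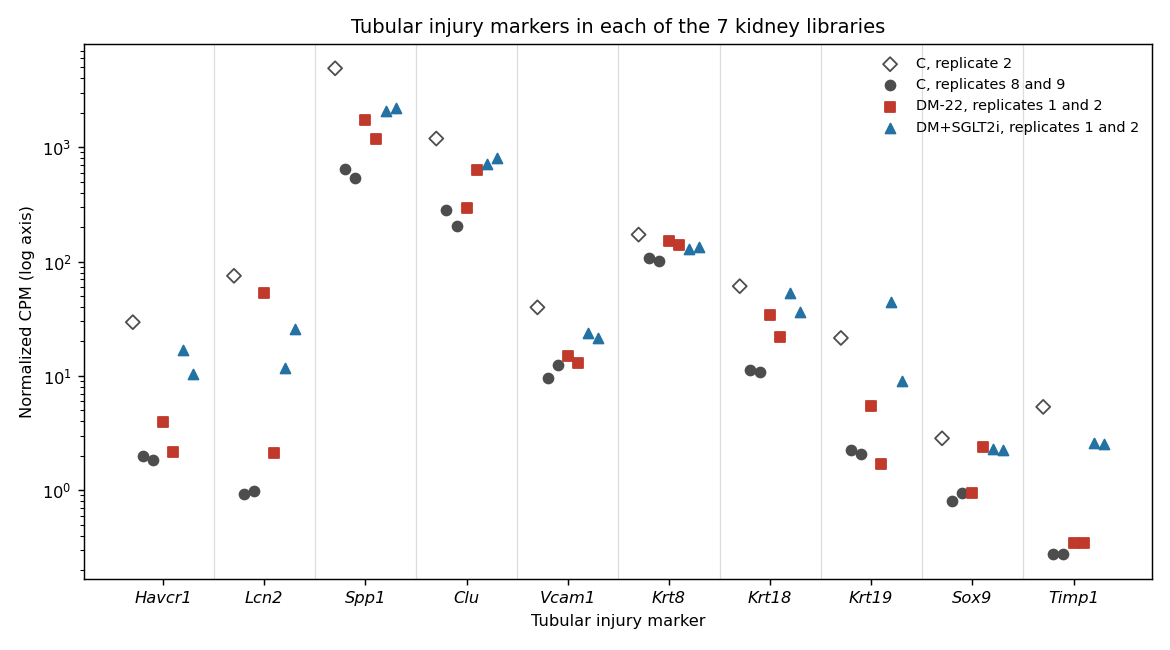
Normalized CPM (log axis) of the 10 markers in each library, with C replicate 2 as an open diamond, C replicates 8 and 9 as circles, DM-22 as squares and DM+SGLT2i as triangles; each point is 1 library. The open diamond is the highest point for every marker but Krt19, and both triangles lie above both circles for all 10 markers.

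Upstream sequences were read for the members of the 2 pairs with the most similar patterns over the 7 libraries, Spp1 with Krt18 and Havcr1 with Timp1. The root mean square difference of their centred log2 levels was 0.297 for Spp1 and Krt18 and 0.372 for Havcr1 and Timp1. RefSeq start sites on build GRCm38.p6 were found for 6 of the 10 markers (Havcr1, Lcn2, Spp1, Krt8, Krt18 and Timp1). The 250 bases before the start are printed for Spp1, Krt18 and Timp1, 5′ to 3′ along the gene's strand, which is the plus strand for each. Capitals mark matches to 2 core promoter motifs, TATAAA and CCAAT (the latter as ATTGG where it lies on the other strand).
Spp1, first start, chr5:104434861-104435110: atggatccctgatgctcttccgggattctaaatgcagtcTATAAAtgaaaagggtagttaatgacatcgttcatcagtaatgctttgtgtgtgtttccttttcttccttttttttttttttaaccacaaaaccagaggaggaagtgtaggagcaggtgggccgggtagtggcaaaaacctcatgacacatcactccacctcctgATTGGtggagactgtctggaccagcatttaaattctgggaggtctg
Krt18, chr15:102027966-102028215: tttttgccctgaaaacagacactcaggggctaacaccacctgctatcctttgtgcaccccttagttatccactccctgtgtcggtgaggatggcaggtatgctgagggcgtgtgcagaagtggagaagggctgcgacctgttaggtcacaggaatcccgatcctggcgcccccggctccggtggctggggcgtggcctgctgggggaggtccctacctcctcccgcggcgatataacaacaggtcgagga
Timp1, chrX:20869916-20870165: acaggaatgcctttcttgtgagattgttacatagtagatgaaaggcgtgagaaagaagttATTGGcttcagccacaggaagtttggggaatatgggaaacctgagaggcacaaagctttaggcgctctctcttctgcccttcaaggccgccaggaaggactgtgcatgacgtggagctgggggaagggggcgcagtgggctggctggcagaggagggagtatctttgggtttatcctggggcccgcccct

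Counting from -1 at the last base before the start, Spp1 held TATAAA at -211 to -206 and CCAAT at -46 to -42, and Timp1 held CCAAT at -190 to -186. Of 32851 promoter windows of the same length, 12.4% held TATAAA and 33.8% held CCAAT. An AP-1 motif (TGANTCA), a STAT motif (TTCNNNGAA) and an NF-kB consensus that requires A or T at the sixth place were also searched on both strands; they were present in 6.75%, 7.02% and 3.90% of all windows, and no window of the 6 markers held any of them. Looser forms of the motifs were not searched. A match of letters is a description and not a site.

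Havcr1 encodes KIM-1, a phagocytic receptor that injured proximal tubule cells place on their luminal surface and shed into urine. It lies on chromosome 11 (46735080 to 46779578, plus strand, GRCm38). C replicates 8 and 9 had 1.98 and 1.84 CPM, and C replicate 2 had 29.5 CPM, which was 15.4 times the mean of the other 2 controls. DM-22 had 3.98 and 2.17 CPM, and DM+SGLT2i had 16.9 and 10.4 CPM. The groups did not overlap once C replicate 2 was set aside: the highest DM-22 library lay under both DM+SGLT2i libraries, and the lowest lay above C replicates 8 and 9. The gap between C and DM-22 was not detectable at this depth in every library, since the 95% exact Poisson interval of C replicate 8 (1.60 to 2.42 CPM) overlapped that of DM-22 replicate 2 (1.76 to 2.66 CPM). Such intervals cover counting error only, because reads without molecular identifiers are not independent molecules. The DM+SGLT2i mean of 13.7 ± 4.65 CPM (SD, n = 2) was 4.44 times that of DM-22 (3.08 ± 1.28 CPM, SD, n = 2).

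Lcn2 encodes NGAL, an iron-siderophore binding protein that distal tubule segments release after injury and that neutrophils also hold. Its gene is on chromosome 2 (32384633 to 32388252, minus strand). C replicates 8 and 9 had 0.926 and 0.983 CPM, C replicate 2 had 74.9 CPM, DM-22 had 52.7 and 2.13 CPM, and DM+SGLT2i had 11.6 and 25.9 CPM. The 2 DM-22 libraries differed 24.8-fold, the widest gap within a group of 2 for any marker, and DM+SGLT2i lay between them. Lcn2 spanned 80.9-fold over the 7 libraries, the largest range of the 10 markers. Its pattern was also the one least like the others, with a root mean square difference of at least 1.40 log2 units from every other marker and up to 2.07 from Sox9.

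Markers of the thick ascending limb (8 genes, among them Umod and Slc12a1) summed to 16174 CPM in DM-22 replicate 1 and to between 5049 and 9413 CPM in the other 6 libraries. The 6 listed neutrophil genes of a list of 10 summed to between 2.64 and 6.88 CPM, with the highest sum in DM-22 replicate 1 and 4.80 CPM in C replicate 2. S100a8, a neutrophil gene of that list, was at most 1.58 CPM in any library. The part of segment or neutrophil content in the Lcn2 levels was not tested.

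Spp1, which encodes osteopontin, a secreted phosphoprotein that attracts macrophages and inhibits crystal growth in urine, was the most abundant marker in every library. Its gene is on chromosome 5 (104435118 to 104441050, plus strand), and an unconfirmed transcript, Gm42793, shares exonic bases with it on the same strand, so reads there could be assigned to either. C replicates 8 and 9 had 638 and 542 CPM, DM-22 had 1719 and 1172 CPM, DM+SGLT2i had 2082 and 2223 CPM, and C replicate 2 had 4898 CPM. With C replicate 2 aside, the levels fell into 3 separate ranges, lowest in C and highest in DM+SGLT2i. The DM-22 mean (1445 ± 387 CPM, SD, n = 2) was 2.45 times that of C replicates 8 and 9 (590 ± 68.1 CPM, SD, n = 2), and the DM+SGLT2i mean (2153 ± 100 CPM, SD, n = 2) was 3.65 times it. C replicate 2 exceeded the same mean 8.30-fold. With it included, the control mean was 2026 ± 2488 CPM (SD, n = 3), so that DM-22 lay below it, at 0.713 times, and DM+SGLT2i was at 1.06 times.

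Clu encodes clusterin, a secreted chaperone and lipid carrier that damaged tubules and also the normal distal nephron produce. The gene sits on chromosome 14 (65968483 to 65981547, plus strand). Clu had 280 and 204 CPM in C replicates 8 and 9, 292 and 635 CPM in DM-22, 706 and 810 CPM in DM+SGLT2i, and 1190 CPM in C replicate 2. DM-22 replicate 1 was only 12.3 CPM above C replicate 8, whereas DM-22 replicate 2 was close to the treated libraries. Per kb of exon, the scale on which genes can be compared, Clu stood at 59.4 to 346 CPM per kb and Spp1 at 329 to 2972 CPM per kb.

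Timp1 encodes a secreted inhibitor of matrix metalloproteinases. It lies on chromosome X (20870166 to 20874735, plus strand) inside the span of Syn1, a gene of the opposite strand whose exons it does not overlap. C replicates 8 and 9 had 0.274 and 0.278 CPM (13 reads each), DM-22 had 0.342 and 0.347 CPM (19 and 15 reads), DM+SGLT2i had 2.56 and 2.51 CPM (131 and 139 reads), and C replicate 2 had 5.35 CPM (292 reads). The treated mean was 7.37 times that of DM-22 and 9.20 times that of C replicates 8 and 9. Against the mean of all 3 controls (1.97 ± 2.93 CPM, SD, n = 3) it was 1.29 times as high, and DM-22 was at 0.175 times. The 95% Poisson intervals ran from 0.146 to 0.475 CPM over C replicates 8 and 9, from 0.194 to 0.572 CPM over DM-22, and from 2.11 to 3.04 CPM over DM+SGLT2i. The intervals of the first 2 groups overlapped, and those of the third lay above both.

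Vcam1 encodes an adhesion molecule that binds leukocyte integrins and appears on tubule cells that fail to repair, and is otherwise a protein of activated endothelium. Its place is chromosome 3 (116109949 to 116129688, minus strand), overlapped on the other strand by the antisense gene Gm43109. The kit keeps strand, but whether reads were counted by strand is not given in the sources used here. C replicates 8 and 9 had 9.56 and 12.3 CPM, DM-22 had 14.99 and 12.93 CPM, DM+SGLT2i had 23.5 and 21.5 CPM, and C replicate 2 had 39.7 CPM. DM-22 replicate 2 was 0.597 CPM above C replicate 9, while both treated libraries cleared every DM-22 value by at least 6.52 CPM. Endothelial genes (10 listed, among them Pecam1 and Kdr) summed to between 632 and 958 CPM in the 7 libraries and were highest in DM-22 replicate 1.

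Krt8 and Krt18 encode the 2 partners of the keratin filament of simple epithelia, and their genes are neighbours on chromosome 15, 23698 bases apart (Krt8 101996698 to 102004482, minus strand, overlapped on the other strand by Gm36026; Krt18 102028180 to 102032027, plus strand). Krt8 varied least of all markers, 1.69-fold between its lowest and highest library. It had 108 and 102 CPM in C replicates 8 and 9, 150 and 139 CPM in DM-22, 129 and 134 CPM in DM+SGLT2i, and 172 CPM in C replicate 2. It was the marker with both treated libraries below both DM-22 libraries.

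Krt18 had 11.2 and 10.7 CPM in C replicates 8 and 9, 34.3 and 21.8 CPM in DM-22, 53.3 and 36.3 CPM in DM+SGLT2i, and 60.8 CPM in C replicate 2. Its 3 ranges did not overlap with C replicate 2 aside. The partners thus moved by different amounts. Per kb of exon, the ratio of Krt8 to Krt18 was 7.11 and 6.97 in C replicates 8 and 9, 3.21 and 4.69 in DM-22, 1.78 and 2.71 in DM+SGLT2i, and 2.07 in C replicate 2. Both keratins are low in healthy proximal tubule and strong in collecting duct and urothelium.

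Krt19 encodes a keratin of ducts, papilla and urothelium that also appears in dedifferentiated tubule. It lies on chromosome 11 (100140810 to 100148665, minus strand). It had 2.25 and 2.07 CPM in C replicates 8 and 9, 21.4 CPM in C replicate 2, 5.42 and 1.69 CPM in DM-22, and 43.9 and 9.01 CPM in DM+SGLT2i. The 2 treated libraries differed 4.87-fold, and DM-22 lay on both sides of C replicates 8 and 9.

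**Figure D2:**
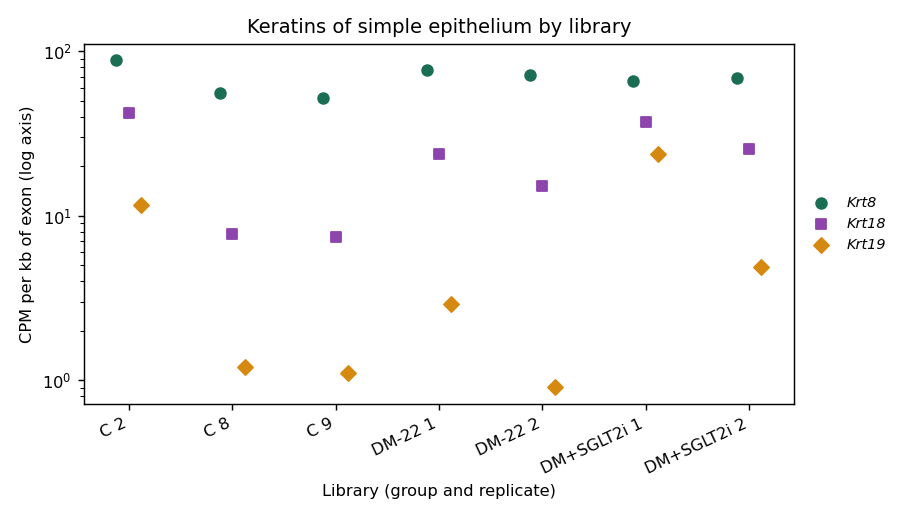
CPM per kb of exon (log axis) of Krt8 (circles), Krt18 (squares) and Krt19 (diamonds) in each library, 1 point per library. Krt8 stays between 51.9 and 87.8 CPM per kb, while Krt18 ranges from 7.45 to 42.3 and Krt19 from 0.910 to 23.7 CPM per kb.

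Sox9 encodes a transcription factor that tubule cells switch on after injury as they begin to proliferate. It lies on chromosome 11 (112782224 to 112787760, plus strand), 457093 bases from the nearest coding gene. Sox9 had 0.800 and 0.940 CPM (38 and 44 reads) in C replicates 8 and 9, 0.936 and 2.41 CPM (52 and 104 reads) in DM-22, 2.29 and 2.26 CPM (117 and 125 reads) in DM+SGLT2i, and 2.84 CPM (155 reads) in C replicate 2. DM-22 replicate 1 fell between the 2 low controls, and DM-22 replicate 2 was above both treated libraries. The 95% Poisson interval of DM-22 replicate 1 was 0.699 to 1.23 CPM and that of replicate 2 was 1.97 to 2.91 CPM.

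The first comparison asked how the markers stood in diabetic kidneys against nondiabetic ones. Both DM-22 libraries lay above C replicates 8 and 9 for 8 of 10 markers, against 29.9% of all genes, and the exceptions were Krt19 and Sox9. Above all 3 controls they lay for 0 of 10 markers, against 10.8% of all genes. Among the 8, the lowest DM-22 library cleared C replicates 8 and 9 by only 0.195 CPM for Havcr1, 0.597 CPM for Vcam1 and 0.0642 CPM for Timp1. For Havcr1 and Timp1 the Poisson intervals of the 2 groups overlapped. The DM-22 mean CPM was between 1.25 and 28.7 times that of C replicates 8 and 9 for the 10 markers. The upper end was Lcn2 and rests on DM-22 replicate 1 (52.7 CPM, against 2.13 CPM in replicate 2). The next highest was Krt18, at 2.56 times. With all 3 controls it was between 0.175 and 1.14 times the control mean, and above it for 4 markers (Lcn2, Krt8, Krt18 and Sox9). With all 3 controls no marker passed the limma test, whose Benjamini-Hochberg adjusted p-values lay between 0.827 and 0.983, and 0% of all genes passed it. At an unadjusted p under 0.05, 0 of 10 markers were higher, against 1.19% of all genes, and 0 were lower. The median log2 difference of the markers was 0.11, with 6 of 10 above 0, and that of all genes was 0.00447. The number of markers above 0 rests on single libraries, C replicate 2 among them. It fell without C replicate 8 or 9, where Spp1, Clu and Sox9 were below 0, and without DM-22 replicate 1 or 2.

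Without C replicate 2, all 10 differences were above 0 and the median was 0.55. The limma fit then called 0 of 10 markers at an adjusted p under 0.05 (0.0143% of all genes), and 3 of 10 at an unadjusted p under 0.05 (10.4% of all genes, higher), namely Spp1, Krt8 and Krt18. Spp1 had a log2 difference of 1.27 ± 0.27 (SE, adjusted p = 0.0938, limma). Krt18 had 1.28 ± 0.27 (adjusted p = 0.0939, limma) and Krt8 0.46 ± 0.12 (adjusted p = 0.103, limma). Lcn2 had the largest estimate, 3.02 ± 1.32 (adjusted p = 0.220, limma), and it rested on DM-22 replicate 1. The adjusted calls turned on single libraries: without DM-22 replicate 1 as well, limma called 2 of 10 markers (Spp1 and Clu) and 4.56% of all genes, and without DM-22 replicate 2 as well, 4 of 10 (Lcn2, Spp1, Krt8 and Krt18) and 21.5% of all genes. In those fits DM-22 was 1 library, assumed to vary like the other groups, and 5 of 10 markers passed the unadjusted threshold as higher in each, against 12.4% and 17% of all genes.

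**Figure D3:**
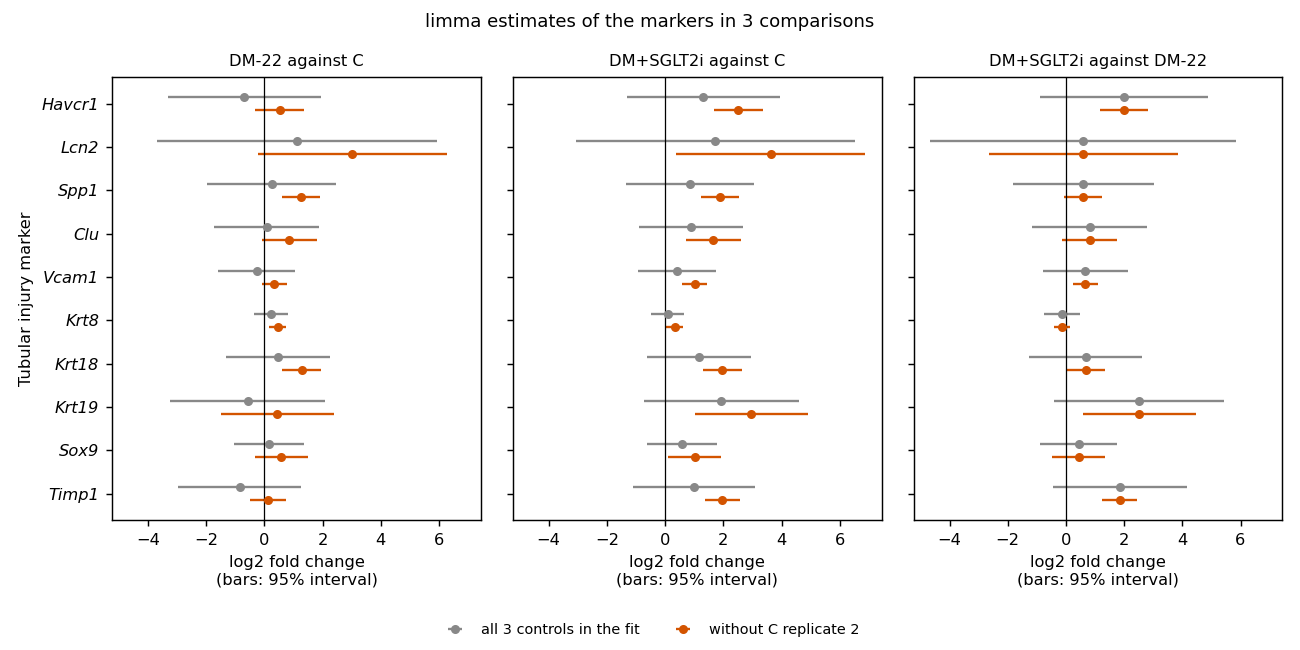
log2 differences from limma with 95% intervals as bars for each marker in the 3 comparisons, with all 3 controls (grey) and without C replicate 2 (orange). The grey bars all cross 0; without C replicate 2, 3 bars of DM-22 against C (Spp1, Krt8 and Krt18), all 10 bars of DM+SGLT2i against C and 5 of DM+SGLT2i against DM-22 (Havcr1, Vcam1, Krt18, Krt19 and Timp1) lie above 0, before adjustment for the number of genes.

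The second comparison set treated diabetic kidneys against controls, using the same control libraries as the first. Both DM+SGLT2i libraries lay above C replicates 8 and 9 for 10 of 10 markers, against 28.2% of all genes, and above all 3 controls for 0 of 10, against 5.67%. Their mean CPM was between 1.25 and 19.7 times that of C replicates 8 and 9, and between 0.732 and 3.08 times that of all 3 controls, above it for 9 markers (all but Lcn2). The 3.08 was Krt19 and rests on DM+SGLT2i replicate 1. That library had 43.9 CPM and replicate 2 had 9.01 CPM, against a mean of 8.59 CPM in the 3 controls. Lcn2 gave both 19.7 and 0.732, with 11.6 and 25.9 CPM in DM+SGLT2i. With all 3 controls the 10 differences were all above 0, with a median of 0.94 (all genes -0.01), but limma called none (adjusted p = 0.9997 for each marker, 0% of all genes called), and 0 of 10 passed an unadjusted p under 0.05, against 0.665% of all genes.

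Without C replicate 2, 10 of 10 markers passed an unadjusted p under 0.05 as higher, against 8.73% of all genes, and the median was 1.92. C replicate 2 lay above C replicates 8 and 9 for every marker, against 44.2% of all genes, so leaving it out raised each difference. The share of all genes is therefore no even yardstick for these counts. No marker passed after adjustment, where limma called 0.122% of all genes. Timp1 (1.97 ± 0.25, SE, adjusted p = 0.0711, limma), Havcr1 (2.52 ± 0.34, adjusted p = 0.0724, limma), Krt18 (1.96 ± 0.27, adjusted p = 0.0749, limma) and Spp1 (1.87 ± 0.27, adjusted p = 0.0769, limma) came closest. Vcam1 had 1.02 ± 0.17 and Clu 1.66 ± 0.38, with adjusted p = 0.0973 and 0.140 (limma). Krt19 (2.95 ± 0.79), Krt8 (0.33 ± 0.12), Sox9 (1.02 ± 0.37) and Lcn2 (3.62 ± 1.32) had adjusted p-values from 0.164 to 0.240 in limma. The Krt19 difference was 1.84 without DM+SGLT2i replicate 1 as well, and 4.06 without DM+SGLT2i replicate 2 as well. The calls again turned on which libraries set the spread: without DM-22 replicate 1 or replicate 2 as well, which leaves 1 DM-22 library and so takes the spread from the other groups, 9 of 10 markers passed the adjusted threshold, all but Krt8, with 11.9% and 11.8% of all genes called. Leaving out a second library from one of the compared groups, so that 1 library stands for it, left 0 adjusted calls. The unadjusted higher calls were then 7 without C replicate 8 (4.04% of all genes), 7 without C replicate 9 (4.58%), 8 without DM+SGLT2i replicate 1 (7.56%) and 7 without DM+SGLT2i replicate 2 (6.43%).

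Within diabetes, treated and untreated kidneys were compared directly, the comparison that needs no control library for its means. Both DM+SGLT2i libraries lay above both DM-22 libraries for 7 of 10 markers, against 21.4% of all genes; the exceptions were Lcn2, Krt8 and Sox9. The median difference was 0.67, with 9 of 10 above 0 (Krt8 was at -0.13 ± 0.26, SE), and the median of all genes was 0.00451. With all libraries in the fit, 0 of 10 markers passed limma's adjusted threshold (0% of all genes) and 0 of 10 the unadjusted one (2.25% of all genes, higher). The largest differences were in Krt19 (2.51 ± 1.22, SE), Havcr1 (1.99 ± 1.20) and Timp1 (1.85 ± 0.96), each with adjusted p = 0.881 (limma). That order rests on single libraries and on the scale. Without DM+SGLT2i replicate 1, Krt19 was at 1.40, Havcr1 at 1.65 and Timp1 at 1.83. Without DM-22 replicate 2, they were at 1.797, 1.621 and 1.851. With all libraries, Timp1 was above Krt19 on the deposited log2 values (2.747 against 2.70). It was also above Krt19 in limma-voom (2.845 against 2.615). In all 3 comparisons with all libraries, limma-voom on the recovered reads also called 0 of 10 markers, with or without adjustment.

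C replicate 2 enters this comparison only through the spread. Without it the same differences had smaller errors, and 5 of 10 markers passed an unadjusted p under 0.05 as higher, against 6.86% of all genes: Timp1 (SE 0.25, adjusted p = 0.376, limma), Havcr1 (SE 0.34, adjusted p = 0.446), Vcam1 (0.67 ± 0.17), Krt19 (SE 0.79) and Krt18 (0.68 ± 0.27), the last 3 with adjusted p = 0.463. The Krt18 difference was 0.36 without DM-22 replicate 2. Without DM+SGLT2i replicate 1 the differences were 0.61 (Vcam1), 1.40 (Krt19) and 0.40 (Krt18). None passed the adjusted threshold, which 0% of all genes passed. Without DM+SGLT2i replicate 1 as well, the library with the highest adipose and urothelium sums, 2 of 10 passed the unadjusted threshold as higher (Havcr1 and Timp1, against 2.32% of all genes), with 1 treated library in the fit. With DM-22 reduced to 1 library, whose spread was assumed from the other groups, leaving out DM-22 replicate 1 as well gave 3 adjusted calls (Havcr1, Lcn2 and Timp1, 3.13% of all genes), and leaving out DM-22 replicate 2 gave 2 (Clu and Timp1, 1.57% of all genes). The size of the Timp1 difference depends on the scale, since DM-22 had only 15 and 19 reads: 1.85 here, 0.95 with a pseudocount of 2 CPM, 2.57 with 0.1 CPM, 2.75 on the deposited log2 values and 2.84 in limma-voom, with adjusted p-values from 0.880 to 0.890 in these fits with all 7 libraries.

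Other genes of tubular injury and repair were taken from a list of 45, of which 43 were tested. Without C replicate 2, 14 were higher in DM-22 than in C and 1 was lower at an unadjusted p under 0.05, and 24 were higher and 1 lower in DM+SGLT2i than in C. The lower ones, named after their values were seen, were Itgb8, an integrin subunit, and Il34, a macrophage growth factor. Of all genes, 10.4% and 8.73% were higher, and 14.8% and 9.14% were lower. The list was written with earlier results of these data known. Its counts therefore describe the list and give no support of their own to a difference. Cdkn1a, Lgals3, S100a10 and Hmox1 are described below because they had its smallest p-values in DM-22 against C without C replicate 2. With all 3 controls 1 was higher in each of these comparisons, Hmox1, against 1.19% and 0.665% of all genes. In DM+SGLT2i 1 was lower, Il34, where 1.08% of all genes passed in either direction. After adjustment, limma without C replicate 2 called 2 of them in DM+SGLT2i, Cdkn1a and Lgals3 (0.122% of all genes), and none in DM-22 (0.0143% of all genes). In DM-22 the difference from C was 3.89 ± 0.38 for Cdkn1a (SE, adjusted p = 0.0781, limma). For Lgals3 it was 0.99 ± 0.13 (adjusted p = 0.0826, limma). With all 3 controls neither passed: in DM+SGLT2i Cdkn1a was at 2.59 ± 1.13 and Lgals3 at 0.58 ± 0.70 (SE), each with adjusted p = 0.9997 (limma). In DM-22 they were then at 2.64 ± 1.13 and 0.19 ± 0.70, with adjusted p = 0.804 and 0.960 (limma). Cdkn1a, which encodes the cell cycle inhibitor p21, had 4.63 and 5.36 CPM in C replicates 8 and 9, 72.7 CPM in C replicate 2, 52.6 and 123 CPM in DM-22, and 78.6 and 77.3 CPM in DM+SGLT2i (log2 difference from C 3.84 ± 0.38, SE, adjusted p = 0.0490, limma). Lgals3, the lectin galectin-3 of macrophages and injured epithelium, had 23.7 and 23.9 CPM in C replicates 8 and 9 and 126 CPM in C replicate 2. It had 47.3 and 48.0 CPM in DM-22, and 56.8 and 69.1 CPM in DM+SGLT2i (1.38 ± 0.13, adjusted p = 0.0490, limma). S100a10, a partner of annexin A2, had 44.6 and 43.2 CPM in C replicates 8 and 9, 97.8 and 86.3 CPM in DM-22, and more than either, 127 CPM, in C replicate 2. Hmox1, the heme-degrading enzyme of oxidative stress, had 33.4 and 39.4 CPM in those controls, 67.5 and 78.8 CPM in DM-22, and 47.0 CPM in C replicate 2, so it was a gene of the list that C replicate 2 did not top.

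Genes of proximal tubule function (25 transporters and enzymes) stood in the opposite order to the markers in C replicate 2. Their summed level was 22684 CPM there, 65108 and 61778 CPM in C replicates 8 and 9, 36665 and 65853 CPM in DM-22, and 39758 and 44180 CPM in DM+SGLT2i. Without C replicate 2, 2 of 25 were lower in DM-22 at an unadjusted p under 0.05 (Slc6a19 and Lrp2, against 14.8% of all genes lower), 2 were lower in DM+SGLT2i (Slc34a3 and Slc7a13, against 9.14%), and none was higher. Slc6a19, the neutral amino acid carrier of the brush border, had 765 and 653 CPM in C replicates 8 and 9 and 253 and 377 CPM in DM-22, with 142 CPM in C replicate 2. Lrp2, the endocytic receptor megalin, had 3597 and 2293 CPM in those controls, 1437 and 1838 CPM in DM-22 and 1258 CPM in C replicate 2. Slc5a12, a lactate carrier, had 405 and 394 CPM against 87.3 and 322 CPM, and Cubn, megalin's partner cubilin, had 904 and 605 CPM against 549 and 520 CPM. In C replicate 2 Slc5a12 was at 56.2 CPM and Cubn at 416 CPM, so that this control lay below both DM-22 libraries for all 4 genes. These 4 were picked for the smallest p-values of the list in DM-22 against C without C replicate 2. Their adjusted p-values there ran from 0.112 to 0.266 (limma). In DM+SGLT2i Slc6a19 had 608 and 350 CPM, Lrp2 1950 and 1799 CPM, Slc5a12 246 and 145 CPM, and Cubn 621 and 660 CPM. As for the labelled tissue, all 25 proximal genes and 5 of 5 podocyte genes (426 to 543 CPM summed in the controls) were listed. The podocyte sum was 300 and 771 CPM in DM-22 replicates 1 and 2, the lowest and highest of the 7 libraries. It was 574 and 544 CPM in DM+SGLT2i.

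Markers of other cell types moved with the injury markers in several libraries, and in bulk tissue more cells of a type and more RNA per cell cannot be told apart. Macrophage genes (10 of 10 listed) summed to 160 and 162 CPM in C replicates 8 and 9, 609 CPM in C replicate 2, 318 and 185 CPM in DM-22, and 320 and 366 CPM in DM+SGLT2i. Fibroblast genes (9 of 9) summed to 213 and 291 CPM, 794 CPM, 288 and 186 CPM, and 793 and 498 CPM in the same order. The macrophage sum was highest in C replicate 2, and the fibroblast sum was about equally high there and in DM+SGLT2i replicate 1. Csf1r made up 77.4 and 68.8 CPM of the macrophage sums in C replicates 8 and 9, and 37.3 CPM in DM-22 replicate 2. Without C replicate 2, 7 of 10 macrophage genes were higher in DM-22 than in C at an unadjusted p under 0.05 (limma). In DM+SGLT2i 9 of 10 were higher, against 10.4% and 8.73% of all genes in the 2 comparisons. Urothelium genes (9 of 9, among them 5 uroplakins) summed to 9.28 and 7.76 CPM in C replicates 8 and 9, 110 CPM in C replicate 2, 36.3 and 3.17 CPM in DM-22, and 182 and 14.4 CPM in DM+SGLT2i. Krt19 followed the same order of libraries at both ends, highest in DM+SGLT2i replicate 1, then C replicate 2, and lowest in DM-22 replicate 2. Collecting duct genes (9 of 9) summed to 604 and 600 CPM in C replicates 8 and 9 and to between 668 and 1357 CPM in the other libraries.

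Adipose genes (7 of 7) summed to 1512 CPM in DM+SGLT2i replicate 1 and to between 4.19 and 58.7 CPM in the other 6. The nuclear-retained RNAs Malat1, Neat1, Meg3 and Kcnq1ot1 summed to 460 and 630 CPM in C replicates 8 and 9 and to between 59.2 and 211 CPM in the other 5, so that C replicate 2, at 94.8 CPM, lay with the diabetic libraries. What these cell types, tissues and RNA fractions contribute to the marker levels was not tested.

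**Figure D4:**
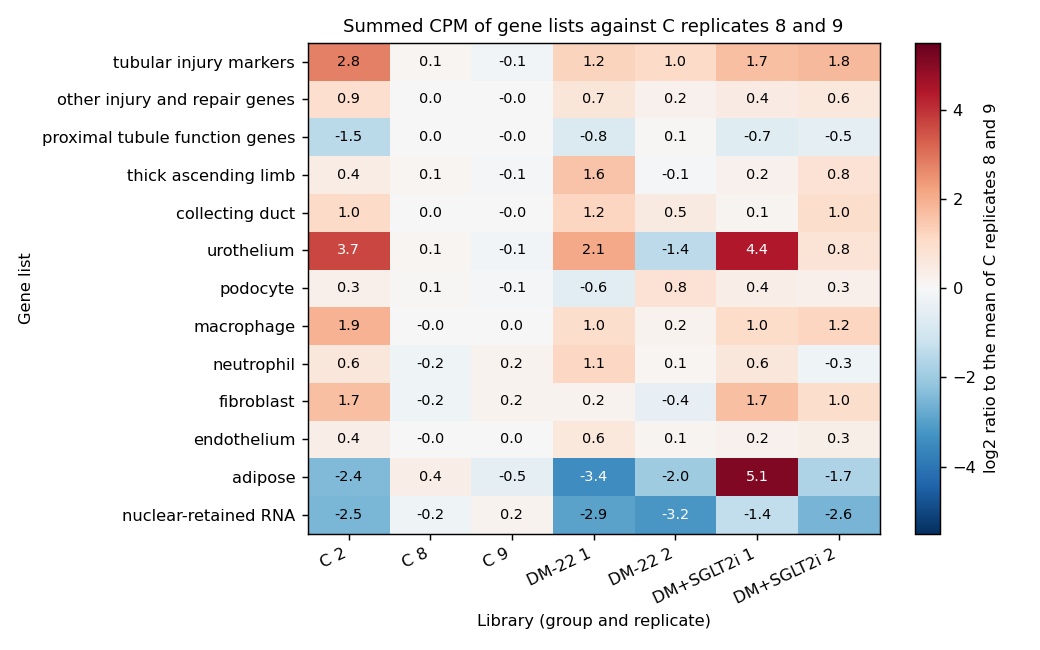
log2 ratio of each list's summed CPM in a library to the mean of C replicates 8 and 9, by colour and printed value, for the markers (a sum made up mostly of Spp1 and Clu) and the other gene lists. C replicate 2 is high for the markers, urothelium, macrophage and fibroblast genes and low for proximal tubule function genes, and the nuclear-retained RNAs are lower in all other libraries than in C replicates 8 and 9.

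Genes with the pattern closest to a marker over the 7 libraries are given for 3 markers, chosen after their values were seen, with the root mean square difference of centred log2 levels as the measure. Nearest to Spp1 were Bst2 (0.170), an interferon-induced membrane protein, C1qa (0.191), a complement subunit made by macrophages, and C3ar1 (0.196), a complement receptor of myeloid cells. C1qa had 13.7 CPM in both C replicates 8 and 9, 93.9 CPM in C replicate 2, 31.3 and 27.8 CPM in DM-22, and 37.3 and 42.1 CPM in DM+SGLT2i. Nearest to Clu were Calb1 (0.102), the calcium-binding protein of the distal convoluted and connecting tubule, Trpv5 (0.230), the calcium channel of the same segments, and Plcd4 (0.265). Calb1 had 317 and 240 CPM in C replicates 8 and 9, 301 and 736 CPM in DM-22, 788 and 957 CPM in DM+SGLT2i, and 1146 CPM in C replicate 2. Nearest to Timp1 were Mmp2 (0.111), a matrix metalloproteinase, Col1a1 (0.174), a chain of type I collagen, and Acsbg1 (0.239). Mmp2 had 4.44 and 5.21 CPM in C replicates 8 and 9, 4.82 and 4.32 CPM in DM-22, 20.7 and 20.3 CPM in DM+SGLT2i, and 39.2 CPM in C replicate 2.

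All 10 markers passed the filter of 1 CPM in 2 libraries, but not by the same libraries: Timp1 reached 1 CPM in C replicate 2 and both DM+SGLT2i libraries alone, Sox9 in those 3 and DM-22 replicate 2, and Lcn2 in all but C replicates 8 and 9. Counts over the 10 markers therefore describe this set and give no support of their own to a difference.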

How the data were processed

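Polyadenylated RNA from whole kidney was sequenced with a directional library kit. Per the labels, reads were trimmed with Trim Galore, aligned with STAR to mm10 and normalized with edgeR (the read counter and versions are not given in the sources used here). The authors deposited log2 values of TMM-normalized counts scaled to library size (CPM) for 17537 genes and 7 libraries, with a small constant added. The constant was removed with the shared floor of the values (-4.66), which gave CPM and whole reads (within 0.1 of a read) for 100% of the values. All 7 columns were used and 0 were left out.

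The design assumed CPM and kept its test: limma 3.58.1 (lmFit, eBayes with a trend) in R 4.3.3 on log2(CPM + 0.5), for the 13976 genes that reached 1 CPM in 2 or more libraries, with the 3 groups fitted together, two-sided, adjusted by Benjamini-Hochberg over those genes at a threshold of 0.05. The pipeline was tested on simulated data with known changes in DM-22 against C. Those data held no control that stood apart like C replicate 2, so that test does not bear on its effect. Gene positions and exon lengths come from GENCODE M21 and promoters from RefSeq (GRCm38.p6).

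The markers and gene lists were chosen with earlier results of these data known. Text names all markers, in the 2 lists on injury and proximal function the 4 genes with the smallest p in DM-22 against C without C replicate 2, some genes of small counts, and the nearest patterns of 3 markers. Alternatives were other pseudocounts, no filter, the deposited log2 values, other scaling, other fits and leaving out libraries. Leaving out C replicate 2 together with a second library was chosen after seeing the data.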

Additional observations from a re-analysis of the deposited data

Results flagged for a closer look

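In 3 markers both DM-22 libraries lay below the mean log2 level of the 3 controls and both DM+SGLT2i libraries above it. Havcr1 differed between DM+SGLT2i and DM-22 by 1.99 ± 1.20 (log2, SE), Timp1 by 1.85 ± 0.96 and Vcam1 by 0.67 ± 0.61, each with adjusted p = 0.881 in limma for the difference itself. The opposite directions rest on C replicate 2, which raises the control mean: against C replicates 8 and 9 alone, both DM-22 libraries were above the controls for all 3 of these genes.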

How the results depend on the processing

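No marker's difference changed sign under pseudocounts of 0.1 or 2, the deposited log2 values, no filter, a fit of only the groups compared, a fit without a trend, or limma-voom on the recovered reads. Some sizes moved by over 1.5 times. With a pseudocount of 2, Sox9 had 0.074 in DM-22 against C, 0.32 in DM+SGLT2i against C and 0.25 in DM+SGLT2i against DM-22, and Lcn2 had 0.38 in the last. Timp1 in DM+SGLT2i against C ranged from 0.43 (pseudocount 2) to 1.67 (deposited values) and in DM-22 against C was -0.52 with a pseudocount of 2. Clu in DM-22 against C was 0.12 with limma-voom. Scaling to the same total shifted the median of all genes by 0.10 (log2) in DM+SGLT2i against DM-22 and reversed Clu in DM-22 against C (-0.012, from 0.077). It also brought Spp1 to 0.16, Krt8 to 0.13 and Sox9 to 0.072 in that comparison, and Krt8 to -0.027 in DM+SGLT2i against DM-22. Leaving out single libraries reversed 9 markers. In DM-22 against C the differences ranged from -1.32 to 0.52 (Havcr1), -1.05 to 3.29 (Lcn2), -0.32 to 1.27 (Spp1), -0.48 to 0.85 (Clu), -0.66 to 0.34 (Vcam1), -1.30 to 0.44 (Krt19), -0.36 to 0.66 (Sox9) and -1.34 to 0.12 (Timp1). Krt8 (0.082 to 0.46) and Krt18 (0.058 to 1.28) kept their sign there but varied in size. In DM+SGLT2i against C, Krt8 ranged from -0.052 to 0.33. The others kept their sign there. Their ranges were 0.68 to 2.52 (Havcr1), 0.76 to 3.62 (Lcn2), 0.28 to 1.87 (Spp1) and 0.39 to 1.66 (Clu). Further ranges were 0.017 to 1.02 (Vcam1), 0.73 to 1.96 (Krt18) and 0.82 to 3.05 (Krt19). Sox9 ranged from 0.34 to 1.02 and Timp1 from 0.51 to 1.97. In DM+SGLT2i against DM-22, Krt19 ranged from 1.40 to 3.63, Spp1 from 0.32 to 0.88, Clu from 0.25 to 1.37, Krt18 from 0.36 to 0.998, Lcn2 from -1.57 to 2.77 and Sox9 from -0.067 to 0.95. With 1 library left out, the genes called by limma after adjustment numbered 0 to 2 in DM-22 against C and 0 to 17 in DM+SGLT2i against C, the higher counts without C replicate 2. Without C replicate 2 and DM-22 replicate 1 or 2 they numbered 637 and 3008 in the first and 1660 and 1647 in the second. Over fits without 1 library, or without C replicate 2 and a second one, markers at an unadjusted p under 0.05 numbered 0 to 5 in DM-22 against C (1.19% to 37.4% of all genes), 0 to 10 in DM+SGLT2i against C (0.186% to 30.3%) and 0 to 7 in DM+SGLT2i against DM-22 (0.386% to 24.1%). The last comparison gave 4 with only the groups compared (5.03% of all genes). Deviations from the group mean of the same-numbered DM-22 and DM+SGLT2i libraries were uncorrelated (r = -0.04 across 13976 genes). With 2 libraries in each group, that value cannot show whether the shared numbers mark a pairing. With the replicate block 5 markers passed the unadjusted threshold (4.98% of all genes) and none the adjusted one. With 2 libraries in a diabetic group, these data cannot separate a group from its mice. Depth limits Timp1, Sox9 and Lcn2, at 13 to 52 reads in their lowest libraries.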
